A study of Salmo trutta with 45 samples.

Results

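The GADD45 family was followed through the livers of juvenile female brown trout (*Salmo trutta*, 6 months old) exposed to glyphosate or to Roundup. Its members were taken as all transcripts whose annotation reads "growth arrest and DNA-damage-inducible", in any case, a rule that reads annotation text only. The family itself was chosen by measured values, the differences from the controls in earlier results of these data, so every value and p-value given for it is a description and no independent evidence. The rule found 8 of 67093 listed transcripts, which belong to 4 of 22434 genes. The alpha genes were *gadd45aa* (ENSDARG00000043581, 2 transcripts) and *gadd45ab* (ENSDARG00000069991, 1 transcript), and the gamma gene *gadd45g* (ENSDARG00000019417) had 4 transcripts. The remaining transcript was annotated as gamma interacting protein 1, *gadd45gip1* (ENSDARG00000039338). No transcript carried a beta annotation, so beta was not analysed here.

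GADD45 alpha, beta and gamma are small acidic nuclear proteins with no enzyme activity of their own. They bind other proteins, among them the cell cycle kinase CDK1, the replication clamp PCNA, the CDK inhibitor p21 and the MAP kinase kinase kinase MEKK4, and so connect stress and DNA damage with growth arrest, repair and p38 or JNK signalling. In mammals *Gadd45a* is induced by DNA damage, *Gadd45g* is also induced by cytokines, and the family takes part in the removal of DNA methylation together with the glycosylase TDG. *Gadd45gip1* encodes a protein of the mitochondrial ribosome and is no GADD45 protein itself. Teleosts kept 2 copies of the alpha gene, hence the names *gadd45aa* and *gadd45ab*.

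Each library came from the liver of 1 fish. There were 12 control fish without chemical and 6 fish in each of 5 treatments of 14 days in flow-through tanks. The Roundup groups were LR (0.01 mg/L), MR (0.5 mg/L) and HR (10 mg/L), given as glyphosate acid equivalent, and the glyphosate groups were LG (0.01 mg/L) and HG (10 mg/L). The controls combine a pair of control groups. The paper states that each treatment group was kept in a pair of replicate tanks, so fish of the same treatment shared tanks. The labels tie no fish to a tank, so a tank effect could not be fitted and the p-values measure the spread between fish only. A middle glyphosate group of 3 fish was not analysed here. All 5 comparisons used the same 12 controls.

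Counted reads ranged from 10223638 (HG fish 5) to 33291845 (LR fish 6) per fish, with a median of 17027086. The summed level of the hepatocyte marker list (18 genes) was 117418 to 197460 CPM (counts of a gene scaled to library size) over the 42 fish. In LG and in HG the summed levels of the marker lists of hepatocytes, exocrine pancreas, red cells, leukocytes, bile duct, and endothelium and stroma all overlapped those of the controls, and no marker gene listed in all tables was at 0 throughout a group. Overlap does not show equal medians: the leukocyte sum had a median of 158 CPM in HG and 243 in LG, against 213 in the controls. The most abundant genes weigh most in these sums, such as hemoglobin alpha (median 490 CPM) for red cells and amylase (44.4 CPM) for pancreas. The endothelium and stroma list also held beta actin (median 227 CPM), its most abundant gene. LG fish 1 and MR fish 1 stood apart from their groups. Their mean absolute departure from the median of the other fish of the group was 0.804 and 0.769 log2 units over 49650 transcripts. It was 0.566 or less in every other fish. In whole livers, fewer cells of a type and less RNA per cell cannot be told apart.

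No member was called in any treatment by edgeR's quasi-likelihood test at a false discovery rate (FDR, Benjamini-Hochberg over all transcripts tested) below 0.1. This threshold was passed by 0.0209%, 0.00159% and 0.00639% of all transcripts with Roundup (LR, MR and HR) and by 0% and 0.00157% with glyphosate (LG and HG), so few calls were made anywhere in the tables. DESeq2 also called 0 of the 8 transcripts in each treatment. It gave the *gadd45aa* transcript comp119036_c0_seq1 no FDR in LR, MR and HR, so this transcript could not be called there. Over all transcripts, DESeq2 called 155 of 62153 in LR and 172 of 62556 in HR. In MR it called 309 higher and 157 lower out of 62718. With glyphosate it called 32 of 63513 in LG and 22 of 63537 in HG. It thus made more calls in each Roundup group than in LG or HG. edgeR's exact test called 1 of the 8 in LG and 0 in the other treatments, where it passed 0.446% of all transcripts in LG, 0.163% in LR, 0.992% in MR, 0.671% in HR and 0.0551% in HG. That transcript was *gadd45ab*, which was lower in LG. At an unadjusted quasi-likelihood p below 0.05 there were 4 of the 8 in LG and 4 in HG, against 6.72% and 6.48% of all transcripts. Of these, 3 in LG and all 4 in HG were transcripts of *gadd45g*, which come from 1 assembly component and are not independent of each other. There were 0 of the 8 in LR, 0 in MR and 0 in HR, against 7.75%, 8.93% and 7.34% of all transcripts.

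**Figure D1:**
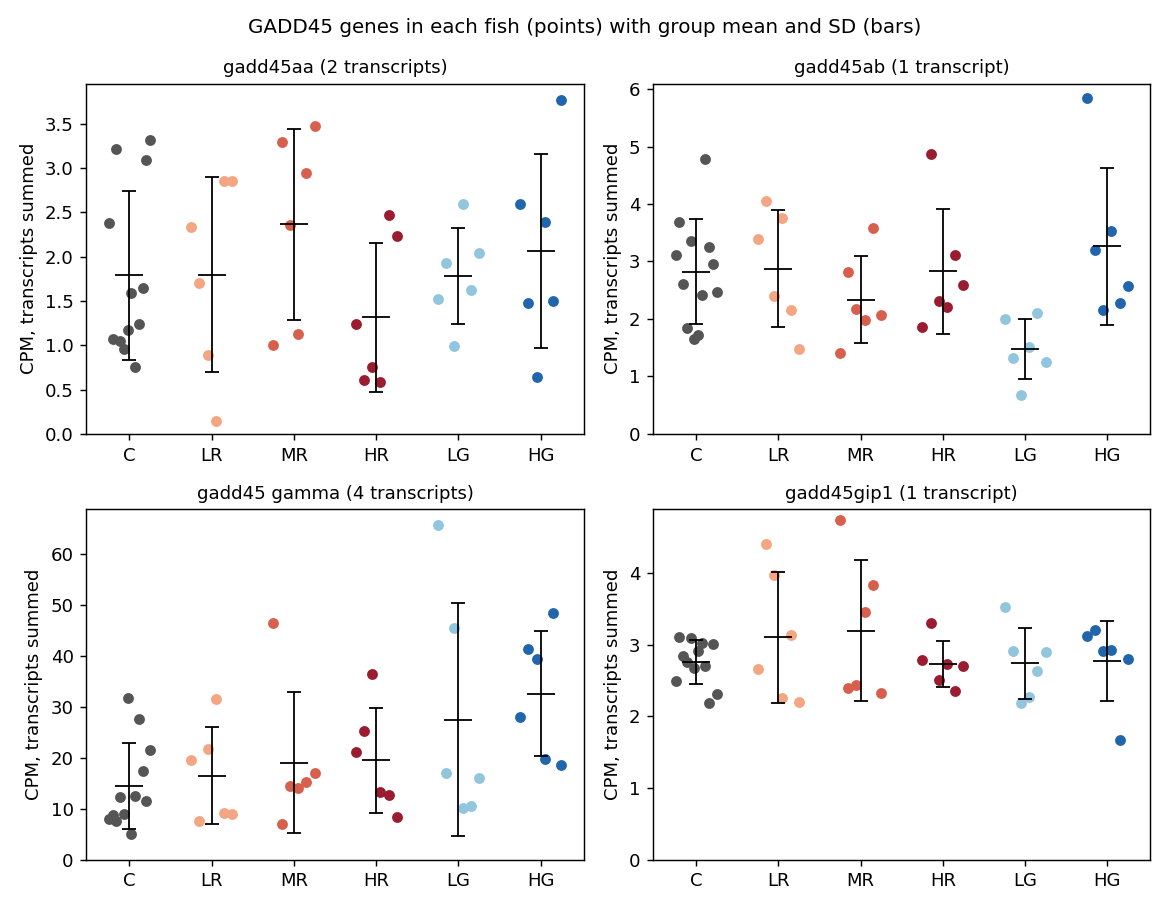
CPM of the 4 genes (vertical axes, transcripts of a gene summed) in the 12 controls (C) and the 6 fish of each treatment (horizontal axes), with 1 point per fish and bars for the group mean and SD. *gadd45ab* lay between 0.675 and 2.1 CPM in LG, all below the control median of 2.79, and *gadd45g* lay between 18.6 and 48.5 CPM in HG, all above the control median of 11.9.

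Of the alpha genes, *gadd45ab* differed most from the controls. In the 12 controls it ranged from 1.64 to 4.79 CPM, with a median of 2.79. The LG fish had 2.00, 1.32, 0.675, 1.52, 2.1 and 1.25 CPM in the order of their numbers. All 6 were below the control median and 4 were below every control, while the 2 highest overlapped the lowest controls. Over all genes, 3.17% had all 6 LG fish below the control median. The LG mean was 1.48 ± 0.526 (SD, n = 6) and the control mean 2.82 ± 0.909 (SD, n = 12).

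The *gadd45ab* level in LG was 0.516 times that of the controls, a log2 fold change of −0.96 (95% interval −1.48 to −0.43). In the quasi-likelihood test its FDR over all genes was 0.405, and over all transcripts 0.436, so it was not called. edgeR's exact test gave an FDR of 0.0916 over genes, where 0.583% of all genes passed 0.1, and 0.0857 over transcripts, and DESeq2 gave 0.129 and 0.185. The exact permutation test on mean log2 CPM, two-sided over all 18564 splits of the 18 fish, gave an unadjusted p of 0.00151, among 20 such tests of 4 genes in 5 treatments whose smallest possible p was 5.39e-05. Leaving out each fish in turn kept the log2 fold change between −1.08 and −0.80, with no call by the quasi-likelihood test. The read numbers behind these values were 17 to 35 per LG fish.

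In the other treatments *gadd45ab*, taken as its annotated transcript only, lay within or near the control range. LR ranged from 1.48 to 4.05 CPM (median 2.90), MR from 1.41 to 3.58 (median 2.11), HR from 1.86 to 4.88 (median 2.46) and HG from 2.15 to 5.84 (median 2.89). All 4 groups overlapped the controls broadly. Their log2 fold changes were 0.00 in LR, −0.27 in MR, 0.00 in HR and 0.20 in HG, with FDR values over genes from 0.714 to 0.999. The value in HG rested on HG fish 1, the highest fish of all at 5.84 CPM: without it the log2 fold change was −0.04. These values leave out the unannotated transcripts of the same assembly component. With those added, the sum was lower in MR, at −0.59 (95% interval −1.02 to −0.16, FDR 0.295). In HR the sum was at −0.41 (−0.75 to −0.06, FDR 0.532), and neither was called. It was −0.29 (−0.64 to 0.07) in LR and −0.16 (−0.55 to 0.23) in HG.

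*gadd45aa*, the other alpha gene, had few reads and varied widely within every group but LG. Its coefficient of variation was 30.3% in LG and 45.5% to 63.9% in the other groups. In LG the median over genes with a mean of at least 1 CPM was 29.2%. The controls ranged from 0.755 to 3.32 CPM (median 1.41), from 10 to 70 reads per fish. LR ranged from 0.151 to 2.85 CPM (median 2.02), MR from 1.01 to 3.48 (median 2.65), HR from 0.589 to 2.47 (median 0.995), LG from 0.993 to 2.59 (median 1.77) and HG from 0.640 to 3.77 (median 1.94). Every treatment overlapped the controls, with 4 of 6 fish above the control median in LR and in MR, 5 of 6 above it in LG and in HG, and 4 of 6 below it in HR. Below every control were 3 fish in HR, 1 in LR and 1 in HG, and above every control 1 in MR and 1 in HG. The log2 fold changes were 0.01, 0.39 and −0.43 with Roundup (LR, MR and HR) and −0.03 and 0.19 with glyphosate (LG and HG), and each 95% interval included 0. The widest of these intervals, in LR, ran from −0.81 to 0.83. LR fish 4 had 2 reads of this gene, the lowest of all fish.

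Of the 2 *gadd45aa* transcripts, comp119036_c0_seq2 was the more abundant in total. It ranged from 0.274 to 2.00 CPM in the controls (median 0.849) and was at 0 in LR fish 4, the only 0 among the 8 members. Its highest fish had 1.90, 2.58 and 1.36 CPM with Roundup (LR, MR and HR) and 1.86 and 2.74 CPM with glyphosate (LG and HG). The medians were 1.1, 1.3, 0.690, 0.848 and 1.09 CPM in that order, so no group separated from the controls. Its log2 fold changes ran from −0.47 in HR to 0.31 in MR, and those of the second transcript, comp119036_c0_seq1, from −0.37 in HR to 0.51 in MR. Across the 42 fish the 2 transcripts had a Spearman rho of 0.56.

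The gamma gene was higher in both glyphosate groups, above all in HG, without passing the FDR threshold. In the controls *gadd45g* ranged from 5.03 to 31.7 CPM, with a median of 11.9. The HG fish had 27.9, 41.5, 39.5, 19.8, 48.5 and 18.6 CPM in the order of their numbers. All 6 were above the control median and 3 were above every control, so the groups overlapped in their lower part. Over all genes, 3.8% had all 6 HG fish above the control median. The means were 32.6 ± 12.3 (SD, n = 6) in HG and 14.4 ± 8.47 (SD, n = 12) in the controls.

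In HG the *gadd45g* level was 2.25 times that of the controls, a log2 fold change of 1.17 (95% interval 0.51 to 1.83). The FDR over all genes was 0.527 in the quasi-likelihood test, 0.105 in edgeR's exact test (0.0749% of all genes passed 0.1) and 0.188 in DESeq2, so no tool called it. In the two-sided exact permutation test the unadjusted p was 0.00388, 1 of the same 20 tests. The log2 fold change stayed between 1.02 and 1.34 when each fish was left out in turn. HG fish 5, the highest of the HG fish, also had the smallest library of all, with 10223638 reads.

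In LG the higher mean rested on few fish. The LG fish had 65.8, 17.0, 45.6, 10.1, 10.5 and 16.1 CPM of *gadd45g* in the order of their numbers. LG fish 1 and LG fish 3 were above every control, and the other 4 lay inside the control range. The log2 fold change was 0.92 (95% interval 0.08 to 1.76) with an FDR of 0.597, and it was 0.46 without LG fish 1, the library that departed most from its group. The summed red cell markers of LG fish 1 were also above every control, at 812 CPM against a control maximum of 717. So were its summed hepatocyte markers, at 191093 CPM against 185784. LR fish 6 had 844 CPM of red cell markers with 8.96 CPM of *gadd45g*, and HR fish 2 had 748 with 25.2. The part of the marker levels in the *gadd45g* level was not tested. The exact permutation test gave an unadjusted p of 0.118.

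The 3 Roundup groups had smaller differences in *gadd45g*. LR ranged from 7.63 to 31.6 CPM (median 14.4), MR from 7.00 to 46.6 (median 14.9) and HR from 8.31 to 36.4 (median 17.2). All 3 overlapped the controls over most of their range. The log2 fold changes were 0.17 in LR, 0.38 in MR and 0.42 in HR, each with a 95% interval that included 0. In MR the sign depended on MR fish 1, the second library that stood apart: it had 46.6 CPM, the next MR fish 17.0, and without it the log2 fold change was −0.10. MR fish 1 also had the highest summed red cell markers of all fish, at 936 CPM against a control maximum of 717, and the part of this in its *gadd45g* level was not tested. Without LR fish 4 the value in LR was −0.11, and without HR fish 3 the value in HR was 0.15.

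**Figure D2:**
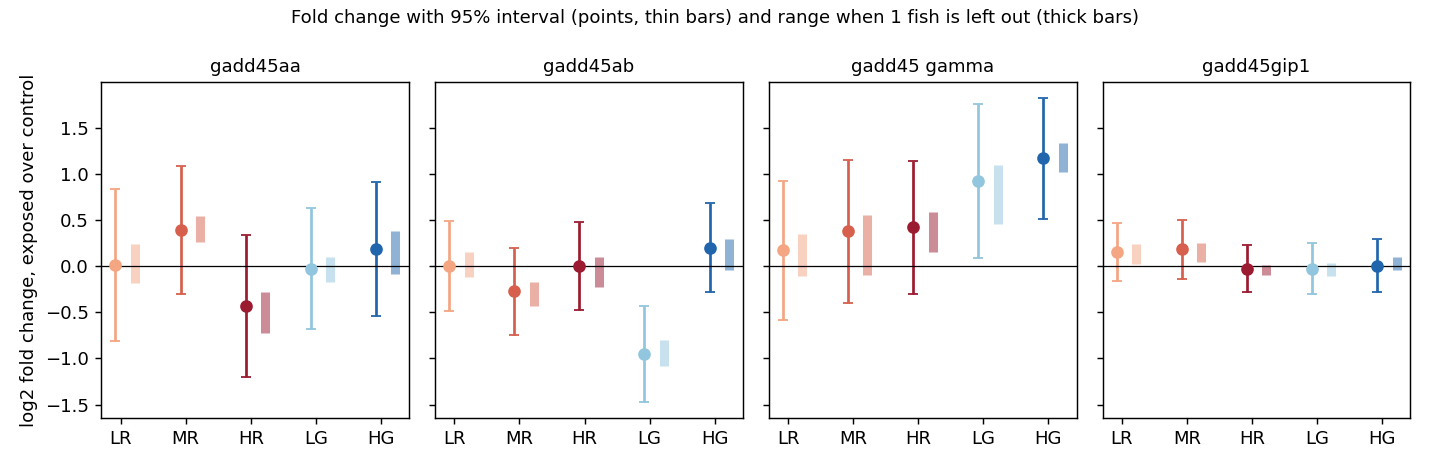
Log2 fold change of the summed transcripts of each gene in each treatment over the 12 controls (vertical axis, above 0 is higher in exposed fish), as points with 95% intervals from the quasi-likelihood fit, and as thick bars the range of values when 1 fish is left out at a time. The interval lies wholly below 0 for *gadd45ab* in LG (−1.48 to −0.43) and wholly above 0 for *gadd45g* in LG and HG, and no other interval excludes 0.

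The most abundant gamma transcript, comp115729_c0_seq2, took 30.9% of the gene's reads on average over the fish. It ranged from 1.82 to 9.91 CPM in the controls (median 3.37), from 2.70 to 21.5 in LG (median 5.63) and from 5.42 to 14.1 in HG (median 10.6). In LR it ranged from 2.46 to 10.5 CPM (median 4.5), in MR from 2.54 to 14.7 (median 5.04) and in HR from 2.69 to 11.6 (median 5.49). Each group overlapped the controls, and HG had no fish below 5.42 CPM. Its log2 fold change was 1.20 (SE 0.30, FDR 0.631) in HG and 0.98 (SE 0.39, FDR 0.653) in LG. In HG all 4 gamma transcripts had close values, from 1.12 to 1.20, and in LG from 0.80 to 1.02. Their Spearman rho across the 42 fish was 0.89 to 0.96 over the 6 pairs. The mean share of the gene's reads ran from 29.6% in the controls to 32.6% in MR for the most abundant transcript, and for comp115729_c0_seq5 from 20.7% in LR to 25.7% in the controls.

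*gadd45gip1*, the mitochondrial ribosome gene that the rule also found, varied least. The controls ranged from 2.18 to 3.10 CPM (median 2.80), a coefficient of variation of 11.0%. HR ranged from 2.36 to 3.30 CPM (median 2.71), LG from 2.18 to 3.52 (median 2.77) and HG from 1.67 to 3.20 (median 2.92). These groups lay around the controls. LR and MR had 3 of 6 fish each above every control, with maxima of 4.40 and 4.73 CPM, and their other fish lay within the control range. The log2 fold changes were 0.15, 0.18 and −0.03 with Roundup (LR, MR and HR) and −0.03 and 0.00 with glyphosate (LG and HG), with FDR values from 0.719 to 0.997.

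Variation among unexposed fish differed between the genes. In the controls the coefficient of variation was 58.7% for *gadd45g*, 53.2% for *gadd45aa* and 32.2% for *gadd45ab*, while the median over the 17339 genes with a mean of at least 1 CPM was 24.6%. The highest control had 31.7 CPM of *gadd45g* (control fish 6) and the lowest 5.03 (control fish 7). *gadd45g* had between 76 and 675 reads in each control, whereas the 10 to 70 reads of *gadd45aa* carry more counting error. Levels were not compared between genes, since the transcript lengths were not used here.

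Among transcripts of the same assembly components, 3 carried no annotation and lay outside the rule. Their values were looked up after those of the members and are given as a description. comp118867_c0_seq4, from the component of *gadd45ab*, ranged from 0.864 to 2.40 CPM in the controls, from 0.390 to 1.88 in MR and from 0.416 to 1.74 in HR. Its median was 1.97 CPM in the controls, 1.32 in LR, 0.597 in MR and 0.921 in HR. It was lower on average in every treatment, with log2 fold changes of −0.65, −1.07 and −1.07 with Roundup (LR, MR and HR) and −0.78 and −0.74 with glyphosate (LG and HG). The quasi-likelihood FDR was 0.265 in MR and 0.264 in HR. edgeR's exact test called it there (FDR 0.0556 and 0.0362, where it passed 0.992% and 0.671% of all transcripts), as did DESeq2 (0.0748 and 0.0512). MR and HR were also the treatments in which DESeq2 called the most transcripts. These were 309 higher and 157 lower out of 62718 in MR, and 172 of 62556 in HR.

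A second unannotated transcript of the *gadd45ab* component, comp118867_c0_seq1, had log2 fold changes from −0.84 in HR to −0.35 in LG. Its rho with *gadd45ab* over the 42 fish was 0.19, and that of comp118867_c0_seq4 was 0.18, so within this component the transcripts did not rank the fish alike. When all 3 transcripts of the component were summed, the log2 fold change was −0.79 (FDR 0.331) in LG, −0.59 (FDR 0.295) in MR and −0.41 (FDR 0.532) in HR. comp115729_c0_seq3, from the gamma component, had 1.43 to 2.40 CPM in HG and 0.908 to 2.04 in LG. The medians were 1.70 and 1.74 CPM, against 0.529 in the controls. Its log2 fold changes were 1.43 in HG and 1.23 in LG, with a quasi-likelihood FDR of 0.631 and 0.525. edgeR's exact test called it in HG (FDR 0.0999, just under 0.1, where 0.0551% of all transcripts passed) and not in LG (0.135). DESeq2 called it in neither group (FDR 0.150 in HG and 0.295 in LG). The control range of this transcript ran from 0.0675 to 1.57 CPM (1 to 28 reads per fish), so HG and LG both overlapped it.

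**Figure D3:**
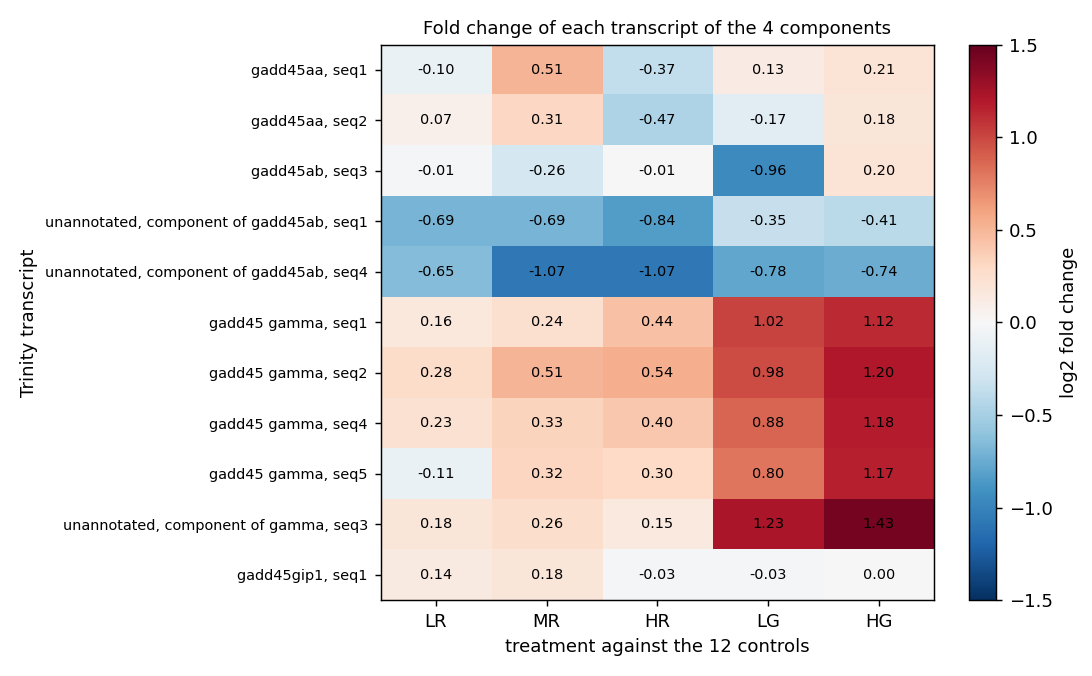
Log2 fold change of each transcript of the 4 Trinity components (rows, 8 members and 3 unannotated transcripts) in each treatment against the 12 controls (columns), with blue for lower and red for higher in exposed fish. The gamma rows are higher in LG and HG (0.80 to 1.43), *gadd45ab* is lower in LG (−0.96), and both unannotated transcripts of its component are below 0 in every treatment.

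The formulation and its active ingredient were compared directly at the 2 doses they share. No member was called between LR and LG or between HR and HG (0% of all transcripts passed in either), and edgeR's exact test also called 0 of the 8. At an unadjusted p below 0.05 there was 1 of the 8 transcripts between LR and LG (2.5% of all) and 2 between HR and HG (5.72% of all). *gadd45ab* was higher in LR than in LG, with a log2 difference of 0.96 (95% interval 0.30 to 1.62, FDR over genes 1.00). *gadd45g* was lower in HR than in HG, with a log2 difference of −0.74 (95% interval −1.46 to −0.02, FDR 0.877), and between LR and LG the difference was −0.74 (95% interval −1.82 to 0.34). For *gadd45aa* the differences were 0.03 (−0.92 to 0.99) between LR and LG and −0.62 (−1.56 to 0.32) between HR and HG. Both intervals for *gadd45aa* reach beyond 0.90 log2 units in at least 1 direction, so they do not show that the chemicals acted alike on it.

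A single test over all 5 treatments in the 42 fish called no member either (0.00837% of all transcripts passed). The unadjusted p was 0.00806 for the *gadd45ab* transcript (FDR 0.659) and 0.0464 to 0.0573 for the gamma transcripts (FDR 0.813 to 0.824). It was 0.586 and 0.777 for the *gadd45aa* transcripts and 0.736 for *gadd45gip1*.

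The alpha and gamma genes were then compared across fish. In the 42 fish *gadd45aa* and *gadd45g* had a Pearson r of −0.39 (permutation p = 0.0116, 0.0812 after adjustment over 7 relations) and a Spearman rho of −0.38 (0.0137, adjusted 0.0962). Fish with more *gadd45aa* thus tended to have less *gadd45g*, short of the threshold of 0.05. After the group means were subtracted, r was −0.51 (permutation p = 0.00054, adjusted 0.00378) and rho −0.49 (adjusted 0.0084). These centred values were shuffled over all fish, with no allowance for unequal spread between groups or for the subtracted means. All p-values of centred relations can therefore be too small. Without the 2 fish farthest from the median of *gadd45aa*, LR fish 4 and HG fish 3, the centred r was −0.47. With LG fish 1 and MR fish 1 left out instead, it was −0.49 (permutation p = 0.00115, adjusted 0.00805). The TMM factor that scales each library also varied between fish. LR fish 4 had a factor of 0.865 with 0.151 CPM of *gadd45aa* and 31.6 of *gadd45g*. MR fish 2 had 1.13 with 3.29 and 7.00 CPM in that order. Other fish differed from this: LR fish 2 had 0.793 with 1.70 and 7.63 CPM, and HG fish 5 had 1.12 with 1.49 and 48.5. The part of the factor in this relation was not tested.

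Without subtraction of group means, *gadd45aa* and *gadd45g* were related among the exposed fish and only weakly among the controls. The value of the exposed fish thus also holds differences between the 5 treatments, while the controls were taken as 1 group. The 30 exposed fish had an r of −0.49 (permutation p = 0.00624, adjusted 0.0437) and the 12 controls an r of −0.11 (permutation p = 0.737, adjusted 0.993), and the difference between these values was not tested. *gadd45ab* showed no such relation with *gadd45g*: r was −0.10 over all fish (permutation p = 0.548), and −0.09 after the group means were subtracted (permutation p = 0.572). The 2 alpha genes did not follow each other, with an r of −0.01 over all fish (permutation p = 0.972) and 0.06 after the group means were subtracted (permutation p = 0.715). The sum of both alpha genes had an r of −0.32 with *gadd45g* (permutation p = 0.037, adjusted 0.13). *gadd45gip1* had an r between −0.12 and 0.17 with the other 3 genes, and the smallest adjusted p among these was 0.625.

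**Figure D4:**
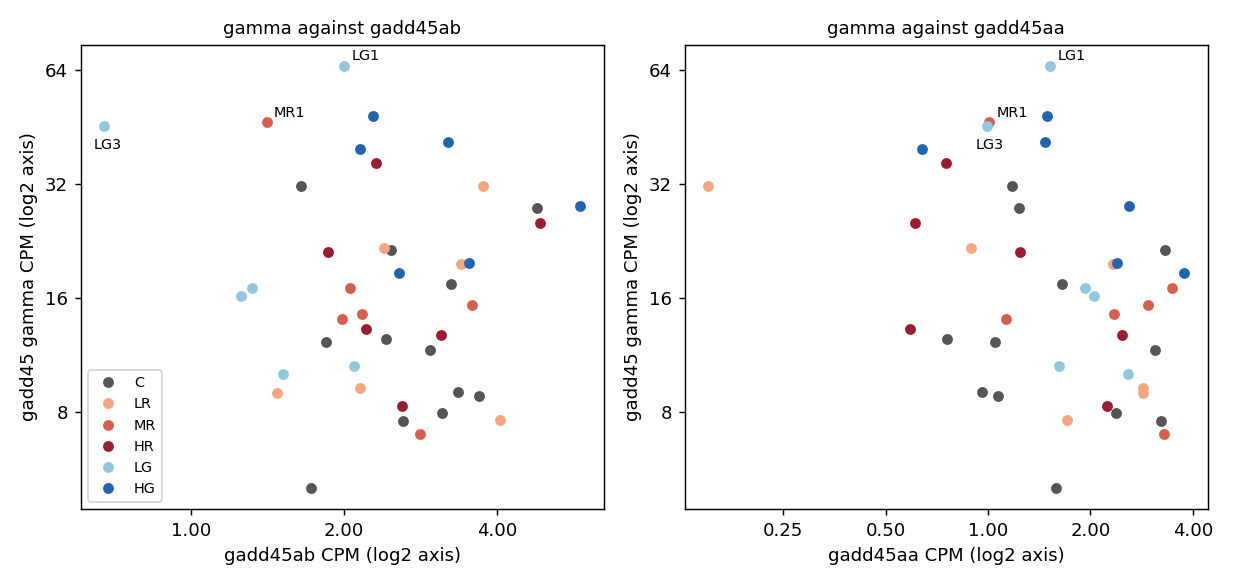
CPM of *gadd45g* (vertical axes) against *gadd45ab* (left) and *gadd45aa* (right) in the 42 fish, all axes on a log2 scale, with 1 point per fish coloured by group. The right panel slopes downward (r = −0.39), the left panel has no clear slope (r = −0.10), and LG fish 1, LG fish 3 and MR fish 1 are marked as 3 of the fish with the most *gadd45g*.

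The genes outside the family whose pattern over the 42 fish was most like each member were taken by Spearman rho, out of 9930 annotated genes with a mean of at least 1 CPM. All of these values share the same libraries and are descriptions. For *gadd45g* the 5 were connective tissue growth factor a (CTGF, a secreted matrix protein; rho 0.85), cytidine deaminase (CDA, a pyrimidine salvage enzyme; 0.77), the bile acid receptor NR1H4 (0.75), insulin-like growth factor binding protein 1b (IGFBP1, which binds IGFs in blood; 0.75) and the transcription factor CEBPD (0.74). In the 12 controls alone these 5 had a rho of 0.84, 0.83, 0.66, 0.68 and 0.65 with *gadd45g*, in fish that were also among the 42 used to pick them.

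*gadd45aa* was most like cytochrome P450 1A (the enzyme induced through the aryl hydrocarbon receptor; rho 0.70), the laminin chain LAMA2 (0.70), the activin subunit INHBA (0.69), the adaptor TRAF4 (0.69) and the ephrin receptor EPHB4 (0.69). In the controls alone the values were 0.63, 0.33, 0.78, 0.41 and 0.20 in that order. *gadd45ab* had lower likenesses, led by monoglyceride lipase MGLL (rho 0.61, and 0.69 in the controls alone), WASH6P (0.59), an uncharacterized protein (0.57), HHLA2 (0.56) and the F-box protein FBXO22 (0.54). The last 4 had a rho of 0.29, 0.19, 0.36 and 0.45 in the controls alone. For *gadd45gip1* the values ran from 0.53 (ZC3H15) to 0.59 (CDCP1). No gene appeared in more than 1 of these 4 lists.

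Genes that act with or upstream of GADD45 were counted in 5 lists, and no gene of any list was called in any treatment by the quasi-likelihood test, where 0.0528%, 0% and 0.00475% of all genes passed with Roundup (LR, MR and HR) and 0% and 0% with glyphosate (LG and HG). Of the cell cycle arrest and damage signalling list, 20 or 21 genes were tested and 0 or 1 had an unadjusted p below 0.05 in each treatment, against 9.43% of all genes for LR, 10.8% for MR, 8.2% for HR, 7.66% for LG and 7.44% for HG. Its median log2 fold change lay between −0.06 (HG) and 0.09 (MR), beside medians over all genes from 0.00 to 0.01. The members with the largest change in the 3 treatments where an alpha gene changed most (LG, HR and MR) were *cdkn1a* in LG, the p21 inhibitor that GADD45 binds (−0.49, FDR 0.751), the phosphatase gene *cdc25b* in HR (0.61, FDR 0.844) and the damage kinase gene *atm* in MR (−0.47, FDR 0.664).

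Of the 10 MAP kinase genes, 3 had an unadjusted p below 0.05 in HR (8.2% of all genes), 2 in MR (10.8%), 2 in LG (7.66%), 0 in LR (9.43%) and 0 in HG (7.44%). The member with the largest change in MR, HR and LG was *mapk14a*, a p38 kinase. It ranged from 0.485 to 1.72 CPM in the controls, from 0.691 to 11.9 in MR, from 0.779 to 6.88 in HR and from 0.719 to 4.84 in LG. The highest fish were MR fish 1, HR fish 3 and LG fish 1, while the lowest fish of each group lay within the control range. The medians were 1.24 CPM in MR, 2.15 in HR and 1.80 in LG, against 1.15 in the controls. The log2 fold changes were 1.56 (FDR 0.223) in MR, 1.18 (FDR 0.344) in HR and 1.11 (FDR 0.465) in LG.

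The 19 transcription factor genes held the largest single changes of the 5 lists in MR, HR and LG, and 6, 7 and 7 of them had an unadjusted p below 0.05 with Roundup (LR, MR and HR), against 9.43%, 10.8% and 8.2% of all genes. With glyphosate there were 6 in LG and 1 in HG, against 7.66% and 7.44% of all genes. *atf3*, a stress-induced factor, ranged from 0.155 to 1.18 CPM in the controls, from 0.0981 to 23.2 in MR and from 0.374 to 10.6 in HR. Its log2 fold change was 2.98 (FDR 0.148) in MR and 2.1 (FDR 0.216) in HR. *egr1*, an early response factor, ranged from 0.170 to 3.43 CPM in the controls and from 1.05 to 87.5 in LG, with a log2 fold change of 3.35 (FDR 0.323). For *atf3* the median was 0.839 CPM in MR and 0.905 in HR against 0.529 in the controls, and for *egr1* 1.83 in LG against 1.36. These medians differed less from the controls than the fold changes did. Again the highest fish were MR fish 1, HR fish 3 and LG fish 1, which were also the highest *gadd45g* fish of their groups.

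Of the 8 other damage and growth arrest genes, 3 had an unadjusted p below 0.05 in LR (9.43% of all genes), 2 in LG (7.66%) and 1 in each other treatment (7.44% to 10.8%). The *ddit4l*-like gene, which in mammals restrains mTOR, ranged from 0.133 to 2.17 CPM in the controls and from 0.300 to 16.3 in LG, with LG fish 1 highest (log2 fold change 2.07, FDR 0.472). Its median in LG was 0.865 CPM against 0.647 in the controls. *ppp1r15b*, a regulatory subunit that reverses the block on translation under stress, was annotated on 2 genes, with log2 fold changes of 0.92 (FDR 0.489) in MR for one and 0.44 (FDR 0.532) in HR for the other. The first had a median of 0.996 CPM in MR against 0.864 in the controls, and its highest MR fish was MR fish 1 at 8.26 CPM. Of the 13 repair and demethylation genes, 0 or 1 had an unadjusted p below 0.05 in a treatment (7.44% to 10.8% of all genes). A *tdg* gene, the glycosylase that works with GADD45 in demethylation, had 0.113 to 1.39 CPM in the controls and 0.830 to 2.72 in MR, with a log2 fold change of 1.38 (FDR 0.187) in MR and 0.75 (FDR 0.625) in HR. Its highest MR fish was MR fish 1, and its median was 1.09 CPM in MR and 0.989 in HR against 0.472 in the controls. *ung*, a uracil glycosylase gene, had −0.34 (FDR 0.832) in LG. All list medians lay between −0.14 and 0.25.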

How the data were processed

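RNA of single livers was sequenced by the authors and assembled de novo with Trinity. Reads of each fish were mapped to the assembly with Bowtie2 2.1.0, keeping 1 hit per read, and counted per transcript with SAMtools 0.1.18. The deposited counts are raw read counts per transcript, with a separate table for each treatment that holds the 12 controls and 6 exposed fish. The fold changes, mean log2 CPM, p-values, FDR and calls of the authors' own edgeR comparisons stand in the same tables and were not used. A line that repeats the header in the HR table was left out (1 line).

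The members and lists were chosen with earlier results of these data known, so none of the values is independent support for the choice. Because the tables hold no zebrafish symbols, a gene is the set of transcripts with the same zebrafish gene identifier, or, where there is none, the same human, mouse or other fish identifier or the same component. Isoforms of 1 component can share reads.

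The filter was 1 read or more in 6 or more of the 18 fish compared, and what passed was tested in R 4.3.3 with edgeR 4.0.16 (TMM, quasi-likelihood F-test, two-sided, no covariates, FDR < 0.1), and gene sums likewise. All 8 members passed this filter in every table. Alternatives were edgeR's exact test (prior df 10) and DESeq2 1.42.0, an FDR of 0.05, no filter, more than 1 CPM in at least 6 fish, RLE size factors, the robust fit, replicate number as a block, all groups together, components in place of genes and leaving out each fish. The scripts were tested on simulated data. CPM values use TMM library sizes over the 42 fish. Relations use log2 CPM (prior count 2) and 100000 permutations. The sum of both alpha genes was taken as log2(CPM + 0.1).

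For each gene the transcript with the highest mean CPM was described in full. Of each list the text names every called gene and otherwise the member with the largest absolute log2 fold change in the 3 treatments with the largest alpha change, and of the genes most alike the 5 with the highest rho. The values of 1 list member are not reported here.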

Additional observations from a re-analysis of the deposited data

Results flagged for a closer look

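Of 50 combinations of a gene or transcript and an exposed group, 7 held a fish far from the other 5, where chance would give about 1 in 20 if values were normal and independent, which skewed CPM values and transcripts that make up a sum are not. Of the 7, 5 were the gamma gene in MR fish 1: the summed level of *gadd45g* was 46.6 CPM against 17.0 in the next MR fish, and its 4 transcripts had 8.61, 14.7, 11.7 and 10.8 CPM there against 3.29, 5.43, 4.58 and 4.45 in the next fish. These 5 are 1 observation, since the transcripts make up the sum. MR fish 1 is also a library that stood apart over all transcripts, and the part of this in its *gadd45g* level was not tested.

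*gadd45gip1* was lowest in HG fish 5, at 1.67 CPM against 2.85 in the next HG fish. The *gadd45aa* transcript comp119036_c0_seq2 was highest in LG fish 4, at 1.86 CPM against 0.900 in the next LG fish.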

How the results depend on the processing

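The count of called members was 0 in every comparison and stayed 0 under all alternatives run, including the replicate block and each fish left out (0 to 0), except that edgeR's exact test called 1 transcript and 1 gene in LG, both *gadd45ab* (log2 fold change −0.96). The cause of this difference between tests was not tested. DESeq2 gave the *gadd45aa* transcript comp119036_c0_seq1 no FDR in LR, MR and HR, so it could not be called there. Numbers did not pair the fish: of 30 same-number correlations of deviations 8 were over 0.1, with a median of −0.02, and 4 of 30 fish correlated best with their own number. With the replicate block, 1 of the 8 transcripts had an unadjusted quasi-likelihood p below 0.05 in LG, in place of 4. Over all transcripts there were 2049 of 63513 in LG, in place of 4271. In HG 4 of the 8 stayed below 0.05, with 2513 of 63537 over all transcripts in place of 4118. Controls 7 to 12 share their numbers with no exposed fish, so with the block they add nothing to the fold change. For the most expressed transcript of each gene, the block turned fold changes near 0: of *gadd45aa* in LG to 0.0469, of *gadd45ab* in LR and HR to 0.0222 and 0.0274, and of *gadd45gip1* in HG to −0.0588. Fitting all groups together turned the *gadd45ab* transcript from −0.01 to 0.000983 in LR and to 0.00974 in HR, where the gene sums were already above 0. Leaving out 1 fish at a time gave, for the most expressed *gadd45aa* transcript, −0.166 to 0.317 in LR, −0.0194 to 0.510 in MR and −0.254 to 0.431 in HG; for *gadd45ab* −0.148 to 0.135 in LR, −0.227 to 0.0917 in HR and −0.0434 to 0.305 in HG; for *gadd45g* −0.0435 to 0.473 in LR; and for *gadd45gip1* −0.0943 to 0.00583 in HR, −0.115 to 0.0315 in LG and −0.0364 to 0.105 in HG. Among relations, *gadd45aa* with *gadd45g* passed 0.05 with group means subtracted (−0.51, and −0.49 without LG fish 1 and MR fish 1) and in exposed fish (−0.49), and summed alpha with *gadd45g* did by Pearson's r with group means subtracted (−0.40, permutation p adjusted 0.0309), but not by Spearman's rho (adjusted 0.119) nor without LG fish 1 and MR fish 1 (r −0.37, adjusted 0.0618), and r was −0.27 without its 2 farthest fish. In controls the r of summed alpha with *gadd45g* went from −0.32 to 0.00301, and that of *gadd45ab* with *gadd45gip1* from 0.17 to −0.0109. Weaker values of r also changed sign: *gadd45aa* with *gadd45ab* to 0.0255 in controls, 0.0577 with group means subtracted and 0.0132 with those 2 fish also left out; *gadd45ab* with *gadd45g* to 0.0986 in controls; and *gadd45g* with *gadd45gip1* to 0.0452 in exposed fish and 0.0400 with group means subtracted. Leaving those 2 fish out, and the gene sums in all groups together, were chosen after seeing the data. Among the 4 genes, few reads limit *gadd45aa* most, at 2 to 83 per fish. The unannotated transcripts had lower means still: 0.698 CPM (comp118867_c0_seq1), 1.01 (comp115729_c0_seq3) and 1.32 (comp118867_c0_seq4), against 1.84 for *gadd45aa*.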
